A study of Drosophila melanogaster with 5 samples.

Results

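The genes described here are 5 members of the dpr and DIP families of Drosophila melanogaster, namely dpr2, dpr8, dpr16, DIP-alpha and DIP-beta, and the chromatin regions near them at which MLE was called. MLE, the product of maleless, is an RNA helicase best known as a subunit of the fly dosage compensation complex. It was mapped by CUT&RUN: a nuclease is brought to a chromatin protein through an antibody, and the DNA fragments it sets free are sequenced. The 5 genes were chosen from these same data because they carried called peaks, so their peaks are a description and no test was made on them. A peak counted for a gene when it overlapped the gene's annotated extent widened by 500 bp on both sides. This gave 30 of the 4422 peaks in the 5 lists, which formed 8 of 2263 regions once peaks sharing at least 1 bp were merged.

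All embryos were female, from crosses with a meiotic drive system that passes on X-bearing sperm, and all mothers carried MTD-GAL4, a driver active in the female germ line. In the clampRNAi group the driver expressed an RNA hairpin against CLAMP (UAS-CLAMPRNAi[val22]) and embryos were 0-2 h old (1 library). CLAMP, which the mother lays down in the egg, is a zinc finger factor that recognises GA-rich sequence. In the control group at 2-4 h, after the maternal-to-zygotic transition, the hairpin was against GFP (2 libraries), and the control group at 0-2 h, before the transition, had the same hairpin (2 libraries). The embryos were whole and pooled from several egg-layings, so no cell type was resolved, and the lists do not measure how far CLAMP was depleted.

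Dpr and DIP proteins are cell-surface proteins of the immunoglobulin superfamily. Dpr proteins on one cell bind DIP proteins on another, each member with its own set of partners, and the pairs are known for matching synaptic partners in the larval and pupal nervous system. DIP-beta is a known partner of Dpr8, DIP-alpha binds Dpr6 and Dpr10, and Dpr16 belongs to the Dpr proteins bound by DIP-gamma. Expression of these genes was not measured here, and no sequence of the peaks was examined.

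The lists differed in length, with 493 peaks after clampRNAi, 370 and 1589 in the 2-4 h controls and 723 and 1247 in the 0-2 h controls, in the order of their replicate numbers. Sequencing depth cannot be told from the lists. Replicate 2 of the 2-4 h controls stood apart, with a median peak width of 2190 bp against 81 to 110 bp in the other 4 lists. Total signal (the authors' summed coverage of a peak) was therefore compared only inside its own list, mainly as a percentile from 0 for the weakest to 100 for the strongest. Maximum signal is quoted as the authors' value, on a scale that may differ between lists.

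Each of the 5 genes had exactly 1 region that was called in all 5 libraries. With every list kept to its 370 strongest peaks 3 such regions were left, with peaks of at least 200 bp 2, and with peaks joined only at a reciprocal overlap of 50% 1. Having a peak was the ground of the choice, and the counts of the 5 genes are therefore set beside the background without reading anything from them. Of all 17684 genes on the main chromosome arms, 1.85% had a peak after clampRNAi, 1.52% and 6.08% in the 2-4 h controls, and 2.53% and 4.08% in the 0-2 h controls, while 7.85% had one in any library and 1.21% in all 5. Long genes offer more room for a peak. Among the 1070 protein-coding genes at least as long as dpr16, the shortest of the 5 at 19.2 kb, 18.4% had a peak after clampRNAi, 14.4% and 30.7% in the 2-4 h controls and 22.1% and 32.1% in the 0-2 h controls. Of these long genes 43% had a peak in any library and 12.2% in all 5. On X the share in all 5 libraries was 29.3% of 208 long genes, and on the autosomal arms it was 8.12% of 862.

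**Figure D1:**
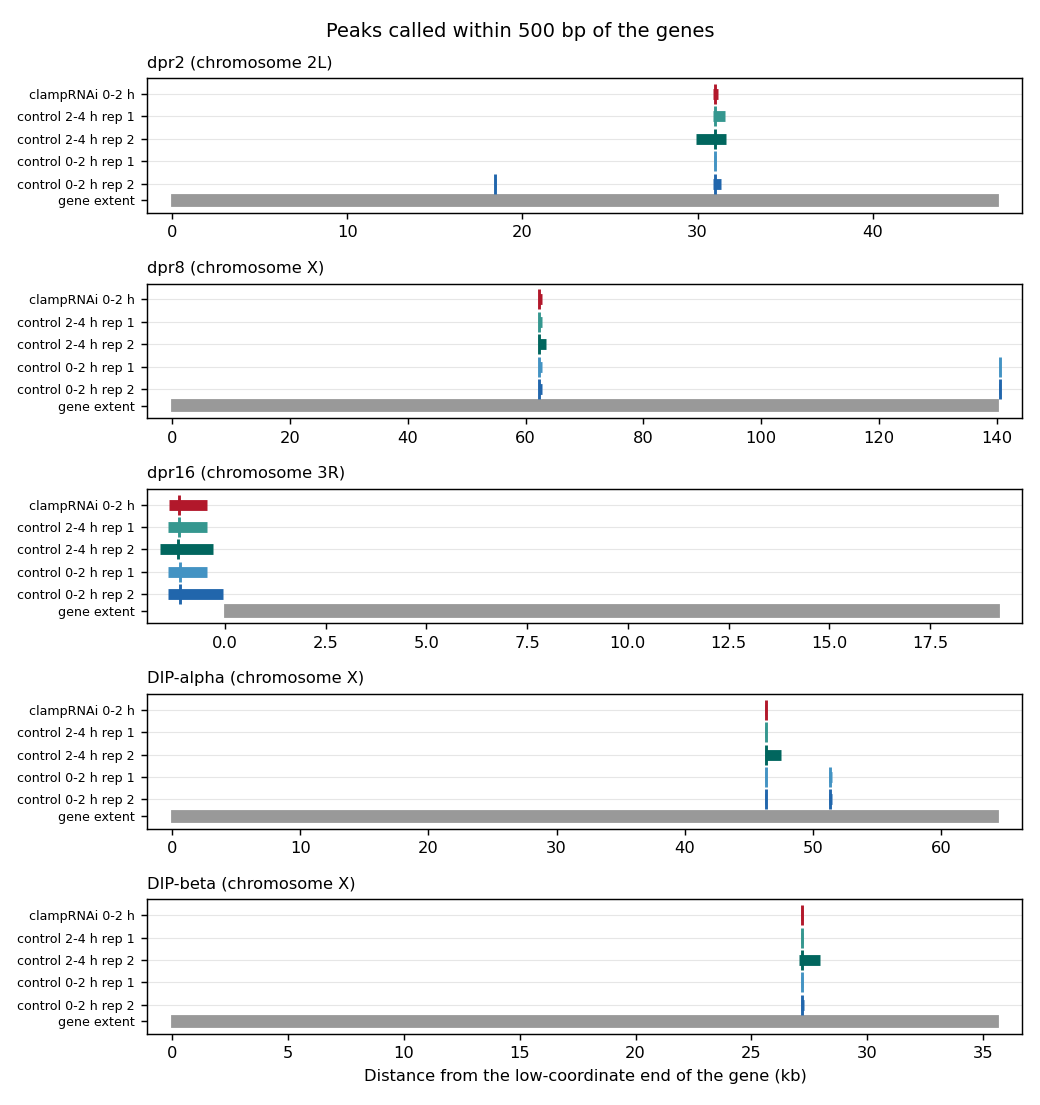
Position of each called peak (bar) and of its maximum (tick) along the 5 genes, as distance in kb from the low-coordinate end of the annotated gene (grey), with 1 row per library. Each gene has 1 site with a peak in all 5 rows, and the 5 dpr16 peaks lie to the left of the gene.

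DIP-beta, the partner of Dpr8, lies on X (dm6, 21422115 to 21457738, 35.6 kb). Its single region (21449151 to 21450052) was inside the gene, 76.3% of the way along it from the low-coordinate end, and overlapped no other annotated gene. The peak was 81 bp wide after clampRNAi, 85 bp and 902 bp in the 2-4 h controls, and 79 bp and 90 bp in the 0-2 h controls. The wide one, in 2-4 h replicate 2, contained all the narrow ones, and the midpoints of the maxima in the 5 lists lay within 1.5 bp of each other. Maximum signal was 1316 after clampRNAi, 1805 and 2627 in the 2-4 h controls, and 2597 and 4402 in the 0-2 h controls. The peak ranked 54 of 493 after clampRNAi, 56 of 370 and 197 of 1589 in the 2-4 h controls, and 55 of 723 and 117 of 1247 in the 0-2 h controls. It stood in the upper part of every list, at percentiles from 85.0 to 92.5.

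DIP-alpha, a receptor of motor and visual system neurons that binds Dpr6 and Dpr10, also lies on X (3507245 to 3571649, 64.4 kb). Its main region (3553526 to 3554734) had its maximum 71.9% of the way along the gene. The peak was 77 bp wide after clampRNAi, 81 bp and 1203 bp in the 2-4 h controls, and 88 bp and 84 bp in the 0-2 h controls. As at DIP-beta, the list of 2-4 h replicate 2 had a broad peak where the other 4 had a narrow one, and the maxima still lay within 5.5 bp. Maximum signal was 911 after clampRNAi, 1239 and 1500 in the 2-4 h controls, and 1712 and 2727 in the 0-2 h controls. Percentiles of total signal were 83.9 after clampRNAi, 78.0 and 78.1 in the 2-4 h controls, and 86.7 and 87.2 in the 0-2 h controls.

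A further region of DIP-alpha (3558464 to 3558690) was called only in the 0-2 h controls, and in both of them. It also lies within the annotated extent of ppk8 (3557812 to 3572000), a gene of the pickpocket family of sodium channel subunits, so it cannot be given to DIP-alpha alone. The peaks were 196 bp and 227 bp wide in replicates 1 and 2, with maximum signals of 325 and 312 and percentiles of 17.2 and 40.2. The maxima were 1 bp apart. Those percentiles are of total signal, by which both peaks ranked low, and by maximum signal they were 40.7 and 50.3.

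The dpr8 gene, the longest of the 5 (X, 14322226 to 14462351, 140.1 kb), encodes the partner of DIP-beta. Its main region (14384439 to 14385734) had its maximum 44.4% of the way along the gene, 3023 bp beyond the nested gene betaNACtes4. Peak boundaries were nearly identical between libraries of both stages and both genotypes. The peak spanned 14384464 to 14384928, 465 bp, after clampRNAi, in 2-4 h replicate 1 and in 0-2 h replicate 2, and 459 bp in 0-2 h replicate 1, whereas in 2-4 h replicate 2 it was 1296 bp wide. The maxima lay within 2.5 bp, near the low-coordinate edge of the peak in every list. Maximum signal was 329 after clampRNAi, 438 and 508 in the 2-4 h controls, and 581 and 893 in the 0-2 h controls. Percentiles of total signal were 73.7 after clampRNAi, 62.8 and 66.9 in the 2-4 h controls, and 81.7 and 83.1 in the 0-2 h controls. The peak stood below those of DIP-alpha and DIP-beta in each list.

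Beyond the high-coordinate end of dpr8 lay a region (14462659 to 14462709) that was also called only in the 0-2 h controls, and in both of them. It began 308 bp outside the gene, between dpr8 and CG9411, which lay 9699 bp farther on. The peaks were 47 bp and 50 bp wide in replicates 1 and 2, with maximum signals of 435 and 381. Their percentiles were 28.4 and 38.9 by total signal and 55.7 and 56.0 by maximum signal. Both were among the narrowest of the 30 peaks, and all of the signal fell within less than a read length of 150 bp.

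The dpr16 gene (3R, 5150908 to 5170121) encodes a partner of DIP-gamma, and its peaks lay outside the annotated gene. They formed 1 region (5149291 to 5150859) between CG12589, 10302 bp away on one side, and dpr16, 49 bp away on the other. The gap between peak and gene was 449 bp after clampRNAi, 431 bp and 297 bp in the 2-4 h controls, and 449 bp and 49 bp in the 0-2 h controls, so dpr16 entered the set through the margin of 500 bp. The gene table gives no strand, and whether this end is the promoter end of dpr16 was not determined. The peaks were 948 bp wide after clampRNAi, 973 bp and 1321 bp in the 2-4 h controls, and 950 bp and 1353 bp in the 0-2 h controls. Of the 5 sites, this was the only one with a peak of 948 bp or more in every list. In 2-4 h replicate 2 its 1321 bp were nevertheless below that list's median width of 2190 bp and below the 1715 bp at dpr2.

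Total signal at dpr16 was the highest of the 5 genes in every library, at percentiles of 96.9 after clampRNAi, 96.9 and 92.5 in the 2-4 h controls, and 97.4 and 93.7 in the 0-2 h controls. Its maximum signal was moderate, at 546 after clampRNAi, 786 and 570 in the 2-4 h controls, and 855 and 853 in the 0-2 h controls. The mean signal over the peak was 41.9% of its maximum after clampRNAi, 42.8% and 31.8% in the 2-4 h controls, and 43.1% and 32.0% in the 0-2 h controls. Outside 2-4 h replicate 2 the same share was 55.2% to 64.0% in the narrow peaks of both DIP genes and 19.3% to 23.6% at dpr8. Within that list it was 4.34% at DIP-alpha, 5.93% at DIP-beta and 8.12% at dpr8. At dpr2 the share varied most, at 22.2% after clampRNAi, 10.2% and 4.49% in the 2-4 h controls, and 70.5% and 14.0% in the 0-2 h controls. The maxima at dpr16 lay up to 60 bp apart, farther than at the other 4 sites.

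The dpr2 gene (2L, 10917015 to 10964153, 47.1 kb) had the weakest of the 5 shared peaks. Its main region (10946934 to 10948648) had its maximum 65.7% to 65.8% of the way along the gene, away from the nested CG14072 and from both nested non-coding genes. Widths varied most here, at 288 bp after clampRNAi, 661 bp and 1715 bp in the 2-4 h controls, and 87 bp and 460 bp in the 0-2 h controls. The maxima nevertheless lay within 8 bp of each other. Maximum signal was 300 after clampRNAi, 362 and 384 in the 2-4 h controls, and 429 and 581 in the 0-2 h controls. Percentiles of total signal were 59.5 after clampRNAi, 40.9 and 47.5 in the 2-4 h controls, and 58.3 and 69.2 in the 0-2 h controls. A separate peak of 49 bp at 10935452 was called in 0-2 h replicate 2 alone, at a percentile of 13.4.

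**Figure D2:**
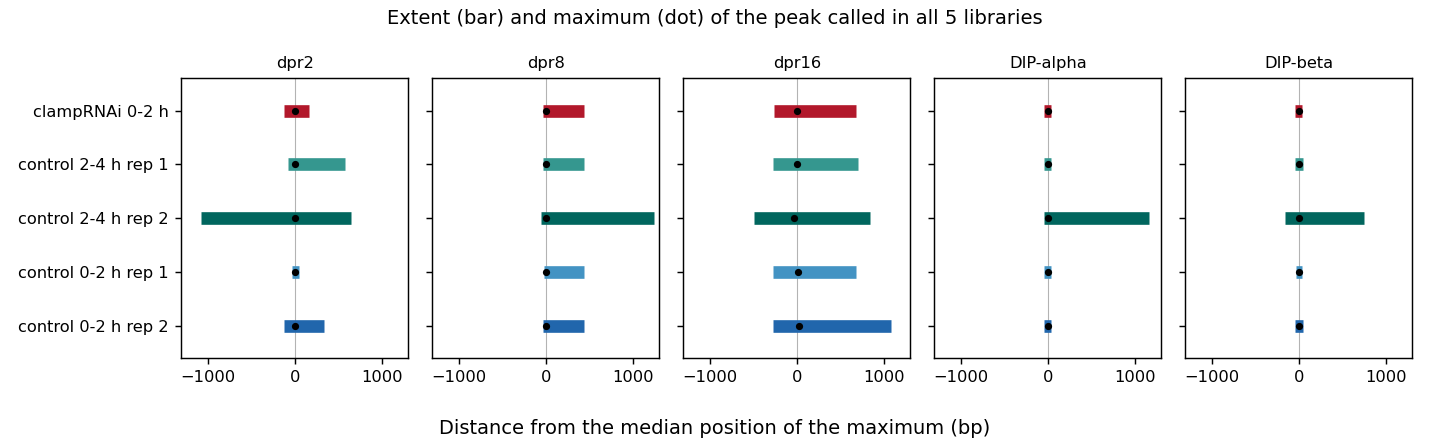
Extent of the peak (bar) and position of its maximum (dot) at the site of each gene that was called in all 5 libraries, as distance in bp from the median position of the maximum, with 1 row per library. The maxima coincide within 8 bp at 4 of the genes and within 60 bp at dpr16, while the bars of 2-4 h replicate 2 are the widest except at dpr16.

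Close agreement of the maximum was common among shared regions. Over the 274 regions called in all 5 libraries the maxima spread over a median of 3.5 bp (quartiles 2.5 bp and 6.5 bp). DIP-beta (1.5 bp) and dpr8 (2.5 bp) were at or below the lower quartile, DIP-alpha (5.5 bp) was between the quartiles, and dpr2 (8 bp) and dpr16 (60 bp) were above the upper one. Peaks of 2-4 h replicate 2 were wider than the median of the other 4 by a median factor of 5.21 over these regions. At the 5 genes the factor was 14.6 for DIP-alpha, 10.9 for DIP-beta, 4.59 for dpr2, 2.79 for dpr8 and 1.37 for dpr16. Of the 30 peaks, 12 (40%) were narrower than the read length of 150 bp, as were 41.2% of all peaks. In 2-4 h replicate 2 this held for 0 of the 5 peaks and for 6.86% of the list.

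The order of the 5 genes by total signal was the same in all 5 libraries, with dpr16 first, then DIP-beta, DIP-alpha, dpr8 and dpr2. Among the 274 regions called in all 5 libraries, dpr16 ranked 12 to 29 by total signal and DIP-beta 44 to 59. DIP-alpha ranked 66 to 94, dpr8 103 to 132 and dpr2 191 to 237. By maximum signal DIP-beta came first and DIP-alpha next in every list, followed by dpr16, dpr8 and dpr2 in 4 of them. In 0-2 h replicate 2 dpr8 (893) and dpr16 (853) changed places. The genes were thus ordered alike before and after the transition and with CLAMP depleted, as far as 1 library after clampRNAi shows.

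**Figure D3:**
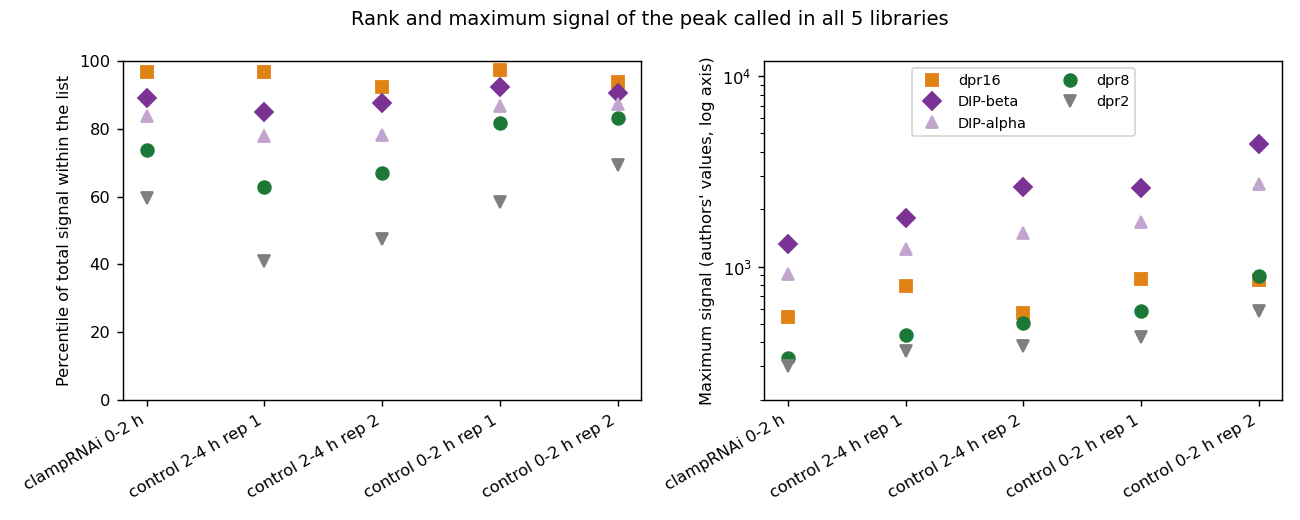
Left, percentile of total signal within each list, and right, the authors' maximum signal on a log axis, for the site of each gene called in all 5 libraries, with 1 point per gene and library. On the left dpr16 is highest and dpr2 lowest in every library, and on the right DIP-beta is highest.

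Ratios between peaks of the same list do not depend on a common factor by which the list was scaled, and they were compared across libraries. The maximum at dpr8 over that at DIP-alpha was 0.361 after clampRNAi, 0.354 and 0.339 in the 2-4 h controls, and 0.339 and 0.327 in the 0-2 h controls. This ratio moved by 1.10-fold in all. The maximum at DIP-alpha over that at DIP-beta was 0.692 after clampRNAi, 0.686 and 0.571 in the 2-4 h controls, and 0.659 and 0.619 in the 0-2 h controls, a range of 1.21-fold. The maximum at dpr8 over that at its partner DIP-beta was 0.25 after clampRNAi, 0.243 and 0.193 in the 2-4 h controls, and 0.224 and 0.203 in the 0-2 h controls, a range of 1.29-fold. These were the narrowest ranges among the 10 pairs of the 5 genes. For all 37401 pairs of regions called in all 5 libraries the median range was 1.90-fold (quartiles 1.43 and 3.39). It was 1.70-fold for the 7381 pairs with both regions on X and 1.72-fold for the 14884 pairs of an X and an autosomal-arm region. For the 7381 pairs on autosomal arms it was 1.75-fold, so it was much the same among pairs on the main arms. The median over all pairs was higher because it also counts pairs with a region off the main arms, which were not summarised apart.

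The 7 pairs with an autosomal gene had wider ranges, from 1.40-fold for dpr2 over dpr8 to 2.25-fold for dpr16 over DIP-beta. Those above 1.73-fold all involved dpr16. The pairs of dpr2 ranged over 1.40-fold to 1.73-fold, beside medians of 1.70-fold to 1.75-fold for pairs on the main arms. The pairs share the same 5 sites and are not independent. The maximum at dpr16 over that at DIP-beta was 0.415 after clampRNAi, 0.435 and 0.217 in the 2-4 h controls, and 0.329 and 0.194 in the 0-2 h controls. It was lower in both replicates 2 than in the other 3 libraries. Within replicate 1 the ratio was higher at 2-4 h (0.435) than at 0-2 h (0.329), and within replicate 2 it was 0.217 at 2-4 h and 0.194 at 0-2 h. The difference between replicate numbers was larger than that between stages, and whether batch or depth moved with it was not tested. The maximum at dpr2 over that at DIP-beta was 0.228 after clampRNAi, 0.201 and 0.146 in the 2-4 h controls, and 0.165 and 0.132 in the 0-2 h controls, a range of 1.73-fold. The ratio of dpr2 to dpr16 ranged over 1.48-fold and that of dpr8 to dpr16 over 1.88-fold. No test of stage was made on these ratios, and with 2 libraries against 2 an exact permutation test cannot give a p below 0.333.

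**Figure D4:**
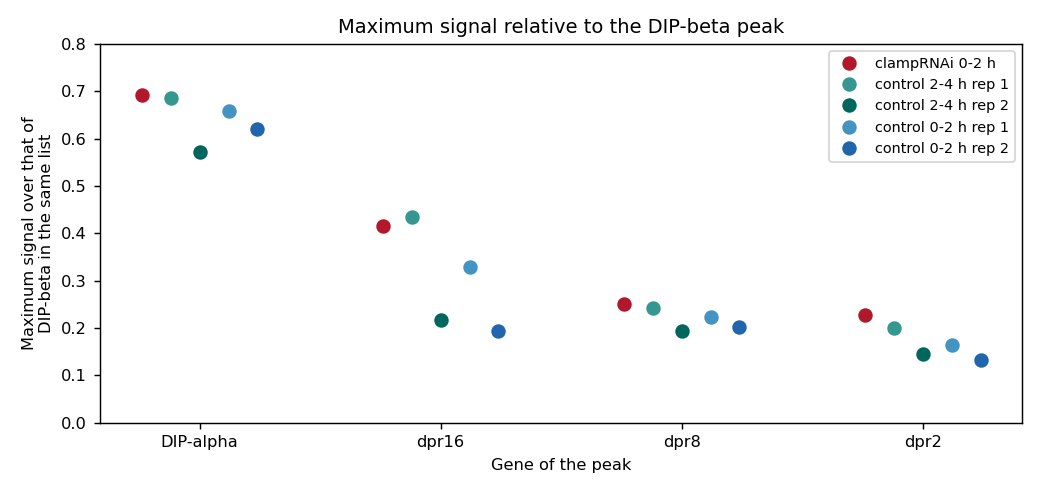
Maximum signal at the shared site of 4 genes divided by that of DIP-beta in the same list, with 1 point per library. The points of dpr16 run from 0.194 to 0.435, with both replicates 2 lowest, while those of DIP-alpha run from 0.571 to 0.692.

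The comparison by stage asked which positions were called on either side of the maternal-to-zygotic transition. Of the 8 regions, 5 were called in both libraries of 2-4 h control embryos, and each of these 5 was also found in both libraries of 0-2 h control embryos. None was shared by the 2-4 h pair while missing from the 0-2 h pair. The other direction held 2 regions, the further one at DIP-alpha and the one beyond dpr8. Both were shared by the 0-2 h pair and missing from the 2-4 h pair. They ranked low by total signal but nearer the middle of their lists by maximum signal. These were 2 of 7 regions shared by the 0-2 h pair, 28.6%, where the share over all 602 such regions was 27.4%. With every list kept to 370 peaks there were 0 regions of this kind, with peaks of at least 200 bp 0, and without the margin around genes 1. The regions called at both stages were 5 of 7, where the share over all was 45.7%. The 2 regions were missing from both the shortest list, 2-4 h replicate 1, and the longest, 2-4 h replicate 2, and the part of list length and depth was not tested.

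The comparison by maternal CLAMP asked which positions were called when CLAMP was depleted. Of the 7 regions shared by the 0-2 h control pair, 5 were also in the clampRNAi list, 71.4%, where the share over all 602 such regions was 76.6%. No region was called after clampRNAi that a 0-2 h control lacked. The regions not called were again those at DIP-alpha within ppk8 and beyond dpr8, both on X. They were thus in the 0-2 h control pair and in no other library, as were 14.5% of the 602 regions. The clampRNAi group had 1 library with a shorter list than either 0-2 h control, and no difference between genotypes could be tested.

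By chromosome, 5 of the 8 regions and 19 of the 30 peaks lay on X, and 3 regions and 11 peaks on autosomes. Over all lists 27.2% of the 2263 regions and 33.1% of the 4422 peaks lay on the X arm. These totals include peaks off the main arms, although genes were taken from the main arms only. The main arms held 433 of 493 peaks after clampRNAi, and 329 of 370 and 1102 of 1589 in the 2-4 h controls. In the 0-2 h controls they held 595 of 723 and 1080 of 1247. The X share among main-arm peaks alone is therefore higher than 33.1%. Of the 5 regions called in all libraries 3 lay on X. Of all 274 such regions 44.5% did, again counting those off the main arms. On the main arms alone as many of them lay on X (122) as on autosomal arms, since each gave 7381 pairs. Both regions that were in the 0-2 h control pair and in no other library were on X, and the region in 0-2 h replicate 2 alone, at dpr2, was on 2L. The autosomal genes held both ends of the ranking by total signal, with dpr16 first and dpr2 last, and the 3 genes on X lay between them in every list.

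The families have 32 genes in the list used here, 21 dpr and 11 DIP genes, and all were found in the gene table. Besides the 5 genes, 4 others had a peak, and 23 had none in any library. Those with a peak were 5 dpr and 4 DIP genes. Their median length was 47.1 kb, against 19.5 kb for those without, and all 9 were among the 21 family genes at least as long as dpr16. On X 3 of 5 family genes had a peak (not dpr14 and dpr18), and on the autosomes 6 of 27 did. Among family genes at least as long as dpr16 these were 3 of 3 on X and 6 of 18 on autosomes, beside 66.3% of all long genes on X and 37.4% of all long autosomal genes with a peak in any library.

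Peaks were looked for at dpr6, dpr10 and DIP-gamma and at the pair dpr8 and DIP-beta, a choice of known partners that leaves out those of dpr2 and further ones of DIP-beta. For DIP-alpha, dpr10 had no peak, and dpr6 (3L, 164.7 kb) had no region in more than 2 lists. At dpr6 a broad region was called in both replicates 2, with a peak of 5736 bp and a maximum signal of 11 in the 2-4 h control, and of 4207 bp and 12 in the 0-2 h control. A separate dpr6 peak of 72 bp was called in 0-2 h replicate 2 alone, at a percentile of 29.6. DIP-gamma (3R), which binds Dpr16, had a peak of 631 bp across its high-coordinate end (28970164 to 28970794) in 0-2 h replicate 2 alone, at a percentile of 21.3. Both genes of the pair dpr8 and DIP-beta had a region called in all 5 libraries, which their choice as members had favoured.

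At dpr13 (2R, 17975122 to 18007902) a narrow region was called in 4 libraries and not in 2-4 h replicate 2. Its peak was 90 bp wide after clampRNAi and in 2-4 h replicate 1, and 93 bp and 91 bp in the 0-2 h controls. Maximum signal was 246 after clampRNAi, 370 in 2-4 h replicate 1, and 606 and 281 in the 0-2 h controls, at percentiles of 45.3, 29.3, 64.9 and 47.8 in that order. The dpr13 site was thus about as wide as the narrow sites of the DIP genes and ranked lower. Such widths were common, since the median peak width of these 4 lists was 81 to 110 bp.

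DIP-lambda (2R, 326768 to 705848), the longest gene of both families at 379.1 kb, had 15 peaks in 4 libraries and none in 2-4 h replicate 1. Its strongest region, around 669898, differed widely in rank between libraries and was not called in 2-4 h replicate 1. Maximum signal there was 45 after clampRNAi, 8645 in 2-4 h replicate 2, and 77 and 8742 in the 0-2 h controls. The percentile was 4.77 after clampRNAi and 12.1 in 0-2 h replicate 1, against 98.0 in both replicates 2. None of the 5 shared sites ranked so differently between replicates of the same stage.

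**Figure D5:**
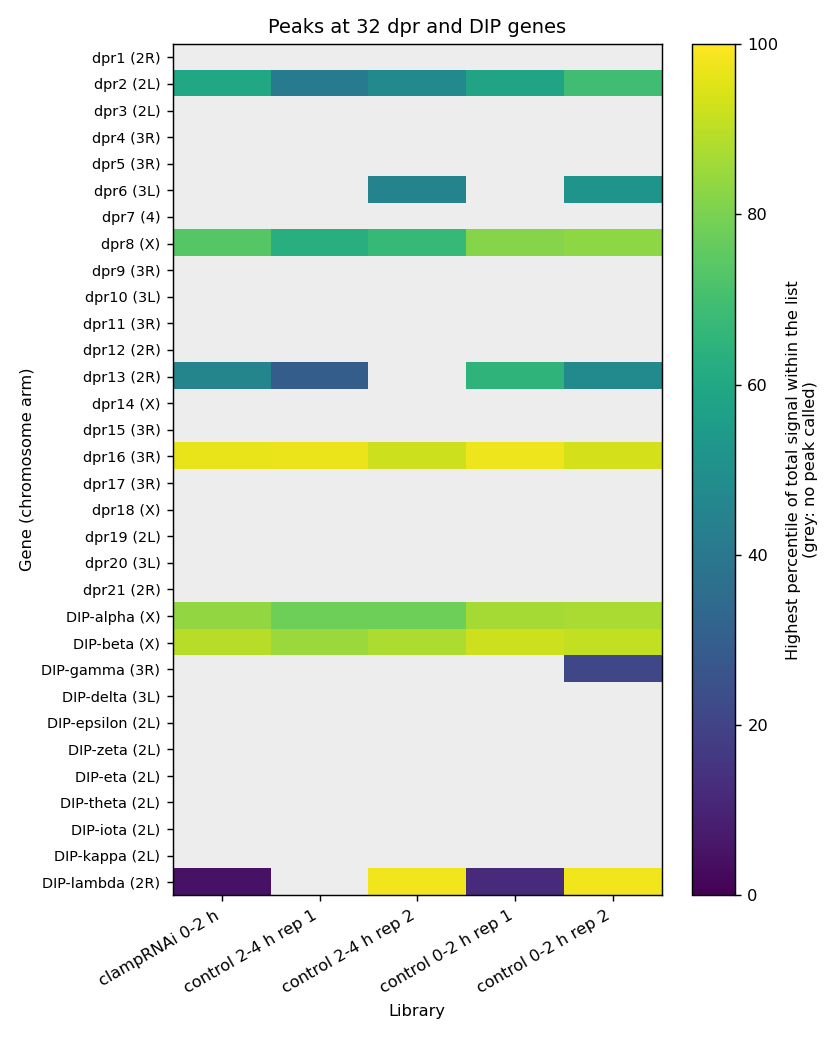
Highest percentile of total signal within the list over the peaks of each of the 32 dpr and DIP genes (rows, chromosome arm in brackets), in each library (columns), with grey where no peak was called. The 5 described genes have a peak in every column, and 23 rows are grey throughout.

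The margin of 500 bp set which peaks were counted. Just inside it were the dpr8 peaks 308 bp beyond the gene and the near edges of the dpr16 peaks, at up to 449 bp. Just outside it was a broad peak 844 bp beyond DIP-beta in 2-4 h replicate 2, with a maximum signal of 12. Farther out, between betaNACtes6 and dpr8, a peak was called in both replicates 2, at 14318397 to 14318467 in the 2-4 h control and to 14318470 in the 0-2 h control. It lay 3759 bp and 3756 bp before dpr8, with maximum signals of 8500 and 6811 and percentiles of 95.0 and 93.1. Its maximum was higher than that of any peak counted for the 5 genes in those lists, and it was called in none of the other 3.

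Other protein-coding genes with the most similar pattern were found from the highest percentile at each gene in the 5 libraries, 0 where no peak was called, by Euclidean distance in percentile points. For dpr16 these were side, which encodes an immunoglobulin superfamily protein of motor axon guidance (distance 1.16), CG12115 (1.57) and bru3 (2.43). For DIP-beta they were Cph (1.88), heca (6.10) and Pdfr, the receptor of the circadian neuropeptide PDF (6.51). For DIP-alpha they were Imp, which encodes an RNA-binding protein (3.53), Zdhhc8 (4.29) and BTBD9 (4.92). For dpr8 they were brat, a regulator of neural stem cell fate (4.72), CG8405 (4.98) and CG3655 (5.46). For dpr2 they were px (10.4), rudhira (11.03) and rn (11.5). None of these 15 genes shared a region with the gene it resembled, and distances over 5 lists that overlap strongly describe rank alone. A function is given for only some of the 15, and no shared theme was tested.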

How the data were processed

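Embryos permeabilised with digitonin were treated with a rat anti-MLE antibody for CUT&RUN, and paired reads of 150 bp were made, per the labels' protocols. The tools SEACR 1.3, Bowtie2 2.4.4, Trimmomatic 0.40, deepTools and bcl2fastq 2.17 and the build dm6 appear, without roles, in the submitters' processing notes. The deposited lists, 1 per library, give total and maximum coverage signal per peak as whole numbers. Their layout is that of SEACR. For the control track, the threshold and any spike-in scaling the sources used here say nothing, and depth is unknown.

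Groups came from the sample titles. Nothing says which libraries share a batch, so the spread between replicates may be technical. Gene extents came from RefSeq (Release 6 plus ISO1 MT, the assembly of dm6), matching all 32 family symbols. That table has no strand, exons or sequence, so the planned exon, intron and motif steps were not run and no sequence is printed. Coordinates are 1-based. The percentile is the mid-rank of total signal within a list.

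Members and lists were chosen with earlier results of these data known. The genes named were every member, each family gene with a peak, overlapping genes under a peak and the 3 closest genes by pattern; neighbouring genes and the peak near betaNACtes6 were added after their values were seen. The alternatives were list length, a stricter list, the margin, peak width, reciprocal overlap, the ranking signal and leaving out each control replicate. Overlap and rank steps were tested on simulated data. Python 3.11.15 with pandas 2.3.3, numpy 2.4.6 and matplotlib 3.10.9 was used.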

Additional observations from a re-analysis of the deposited data

How the results depend on the processing

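The number of shared sites changed with list length, minimum peak width and the overlap rule. With every list kept to its 370 strongest peaks, the 8 regions became 5, those called in all 5 libraries 3, those in both 0-2 h controls 4, and those in both 0-2 h and neither 2-4 h control 0. The number of the 5 genes with a peak, and of their peaks, was then 3 in 2-4 h replicate 2 (family genes 4), and 0-2 h replicate 2 had 4 peaks (family genes 5). With the stronger 50% of each list, the regions were 5, the peaks of 0-2 h replicate 2 were 5, and 1 region was called in both 0-2 h and neither 2-4 h control. With peaks of at least 200 bp, peaks and genes both numbered 3 after clampRNAi, 3 in 2-4 h replicate 1 and 2 in 0-2 h replicate 1, with 4, 3 and 3 family genes in the same order, and 0-2 h replicate 2 had 4 peaks. The regions called in all 5 libraries were then 2, those in both 0-2 h controls 2, those also called after clampRNAi 2 and those in neither 2-4 h control 0. With reciprocal overlap of 50% the regions were 13 and those called in all 5 libraries 1. Without a margin dpr16 had no peak, and 1 region was called in both 0-2 h and neither 2-4 h control. Leaving out each control replicate in turn gave 7 to 8 regions, 5 called in all remaining libraries, 7 to 8 in the remaining 0-2 h controls (5 also after clampRNAi) and 2 to 3 in these and in no remaining 2-4 h control. No test was made of these counts, with or without a replicate block. Paired by replicate number, as values only, the counts were these: within replicate number 1, 2 regions were called at 0-2 h and not at 2-4 h, and within replicate number 2, 3 were, with 0 the other way in both. The cause was not tested for any of these.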
